A study of Arabidopsis thaliana with 12 samples.

Results

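The 93 genes described here are encoded in the organelles of Arabidopsis thaliana. They are all rows of the count table whose identifier starts with ATCG, the plastid genome, or ATMG, the mitochondrial genome. There were 64 plastid genes and 29 mitochondrial genes among 13307 genes, and no expression value was used to choose them. Their transcripts were counted in whole wild type Col-0 seedlings, 2 weeks old, equilibrated in water and then kept for 2 h in light of 30 µE in Rose Bengal (RB) at 0, 10, 100 or 400 µM, with 3 libraries at each dose. RB is a photosensitiser, a dye that passes the energy of absorbed light to oxygen and so yields singlet oxygen. All seedlings received the light, so RB 0 µM is the control for the dye alone. The seedlings had been raised upright on agar medium with sucrose, under long days. The study's methods describe a replicate as a pool of several whole seedlings and as biological. Whether the pools of a dose were grown and treated apart is not given in the sources used here, and every p-value measures the spread between these 3 libraries per dose.

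Plastids and mitochondria keep small genomes that descend from bacteria, and their genes code for core subunits of photosynthesis and respiration, for organelle ribosomal proteins and for ribosomal and transfer RNA. Plastid genes are transcribed by a bacterial-type polymerase that is guided by nuclear-encoded sigma factors, and by phage-type polymerases made in the nucleus. Mitochondrial genes are read by phage-type polymerases. In both organelles a poly(A) tail marks an RNA for decay, unlike the tail of a nuclear messenger RNA, and most organelle RNA carries none. The MARS-seq libraries used here capture RNA through its poly(A) tail and read its 3′ end. A count of an organelle gene therefore follows the tailed RNA of that gene, or stretches of A within it, and the amount of RNA and the share of it that carries a tail cannot be told apart. In whole seedlings, fewer cells of a type and less RNA per cell cannot be told apart either.

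The count table gives identifiers only. None of the 93 identifiers matched a locus tag of the RefSeq annotation (assembly TAIR10.1), although 99.3% of all identifiers in the table did. Notes on nuclear genes in that annotation named 7 of the 93 by likeness of the protein. These were ATCG00530 (CemA-like proton extrusion protein), ATCG00660 (ribosomal protein L20), ATCG00750 (ribosomal protein S11), ATCG01310 (ribosomal protein L2), ATMG00180 (a cytochrome c biogenesis protein), ATMG00560 (an OB-fold nucleic acid-binding protein) and ATMG01090 (an ATP synthase 9-like protein). The other 86 are given by identifier, in order of identifier number. Whether neighbours by number are neighbours in the genome could not be checked for these genes. Nuclear relatives of mitochondrial identifiers did not align to the mitochondrial sequence of TAIR10.1 in that order.

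Which organelle genes a read can be assigned to depends on copies elsewhere in the genome. Arabidopsis carries a large insertion of mitochondrial DNA in nuclear chromosome 2. In TAIR10.1, 70.36% of all windows of 50 bases of the mitochondrial sequence (367808 bases) were found again, letter for letter, on chromosome 2. Of 33 mitochondrial protein-coding genes in the RefSeq annotation, 15 had all their windows elsewhere in the assembly and 5 had none, namely atp4, ccmB, cox1, nad4L and nad9. The ribosomal RNA genes rrn26 and rrn5 had no window elsewhere and rrn18 had 0.4%. The plastid sequence (154478 bases) differed in that 33.95% of its windows recurred within itself, in its inverted repeat, and 3.02% on another sequence. Among 85 plastid protein-coding genes, 58 had no window elsewhere and 10 had all, and the 7 annotated ribosomal RNA genes were duplicated throughout.

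**Figure D1:**
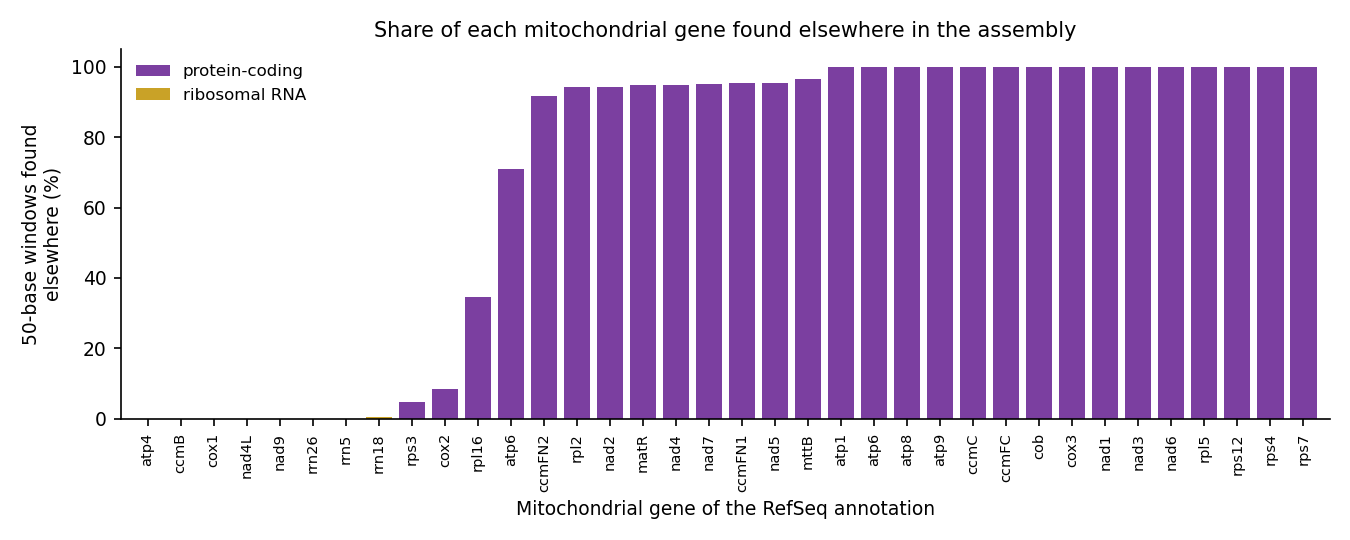
Each bar is a mitochondrial protein-coding gene (purple) or ribosomal RNA gene (yellow) of the RefSeq annotation, and its height is the percent of the gene's 50-base windows found again elsewhere in TAIR10.1. The genes fall into a group near 0 and a larger group above 90, with rpl16 at 34.6 and 1 copy of atp6 at 71.1 in between.

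Few of the genes with a nuclear relative were in the table. Notes on nuclear genes of the chromosome 2 insertion (identifiers starting AT2G07) named 45 mitochondrial identifiers as their nearest relatives, and 3 of those 45 were in the table. Of the 46 nuclear genes that carry such notes, 4 were in the table, with 157 reads over the 12 libraries. All 46 aligned to the mitochondrial sequence at 99.72% identity or more, 22 of them at 100%. How close a nuclear copy can be is shown by AT2G07815, the relative of ATMG00180. In 2496 aligned bases it differed from the mitochondrial sequence at 1 base, written T31A, with the nuclear base first and positions counted from 1 at the 5′ end of the 61 bases printed here (RefSeq, TAIR10.1). The capital marks the base that differs.
AT2G07815, chr2:3445390-3445450, plus strand: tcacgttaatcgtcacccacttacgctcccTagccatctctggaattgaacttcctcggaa
Mitochondrial sequence, MT:188271-188331, minus strand: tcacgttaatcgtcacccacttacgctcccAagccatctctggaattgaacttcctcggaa

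A short 3′ read from most of AT2G07815 would match both places. No source used here placed ATMG00180 on the mitochondrial sequence. The RefSeq protein-coding gene that overlaps the aligned stretch, ccmFC at MT:189483-191770, does not hold the printed bases. The printed bases may therefore lie outside ATMG00180. ATMG00180 nevertheless held 519 reads, so the reference used by the authors (Araport 11) may differ from TAIR10.1 here, which was not tested. How reads with more than 1 position were counted is not given in the sources used here. Genes that are absent from the table, the respiratory subunits named in those notes among them, were not analysed here, and their absence says nothing of their RNA.

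The shallowest library held 1499791 reads and the deepest 3608636, both at RB 10 µM. Levels are given in CPM, reads scaled to a library of 1000000 reads, and 1 read was worth 0.277 to 0.667 CPM before the scaling factors. Plastid genes took 0.228% to 0.466% of the reads of a library and mitochondrial genes 0.837% to 1.52%. The 95% Wilson interval of the lowest plastid share, in RB 0 µM replicate 3, was 0.222% to 0.234%. Such intervals are narrow beside the spread between libraries, and they cover counting error only, since reads were not collapsed to molecules.

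A few genes made up most of these reads. ATMG00020 alone took 310709 of 352550 mitochondrial reads (88.13%) and ATMG01390 took a further 8.14%. Among plastid genes ATCG00740 was highest with 31.19% of 101928 reads, and the first 10 genes held 82.59%. Mean levels ran from 0.461 CPM (ATCG00600) to 1120 CPM (ATCG00740) in the plastid and from 0.989 CPM (ATMG00510) to 10829 CPM (ATMG00020) in the mitochondrion. Only 23 plastid and 12 mitochondrial genes reached a mean of 10 CPM. A level here is a count of 3′ ends and depends on how often a gene's RNA is tailed.

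The plastid share of reads was highest at the highest dose. It was 0.345%, 0.325% and 0.228% in the RB 0 µM libraries, and 0.376%, 0.466% and 0.430% in the RB 400 µM libraries, which were all above them. The means were 0.299% ± 0.063, 0.328% ± 0.063, 0.367% ± 0.052 and 0.424% ± 0.045 (SD, n = 3) at 0, 10, 100 and 400 µM, and neighbouring doses overlapped. Without ATCG00260, whose reads came almost wholly from RB 400 µM replicate 3, the mean at 400 µM was 0.398% ± 0.060. The groups still did not overlap, with 0.352% as the lowest value at 400 µM and 0.345% as the highest at 0 µM. However, ATCG00740 held 31.19% of all plastid reads and was itself called higher at 400 µM. The separation rests in part on that gene and is not shown for the other plastid genes.

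The mitochondrial share had 2 parts that moved differently. ATMG00020 took 1.38%, 1.01% and 1.14% of the reads at RB 0 µM, then 1.02%, 0.781% and 0.741% at 10 µM, 1.07%, 1.07% and 1.02% at 100 µM, and 1.30%, 1.31% and 1.07% at 400 µM. The 10 µM values were the lowest, apart from 1 that passed the lowest control, and the upper doses lay within the control range. The other 28 mitochondrial genes together had a different order. Most of their reads came from ATMG01390, which gave 2314 of their 3371 reads in RB 0 µM replicate 1. Their summed share and its ratio to ATMG00020 therefore mostly follow that gene. They took 0.141%, 0.124% and 0.120% of the reads at RB 0 µM and 0.112%, 0.114% and 0.096% at 10 µM. Their share was 0.162%, 0.144% and 0.163% at 100 µM and 0.196%, 0.193% and 0.176% at 400 µM. All 6 libraries at the higher doses lay above all 6 at the lower doses, and the RB 400 µM libraries lay above the rest. For each 100 reads of ATMG00020 there were 11 ± 1.084 reads of the other 28 at RB 0 µM and 15.4 ± 0.998 at 400 µM (SD, n = 3), with ranges of 10.2 to 12.2 and 14.7 to 16.5.

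**Figure D2:**
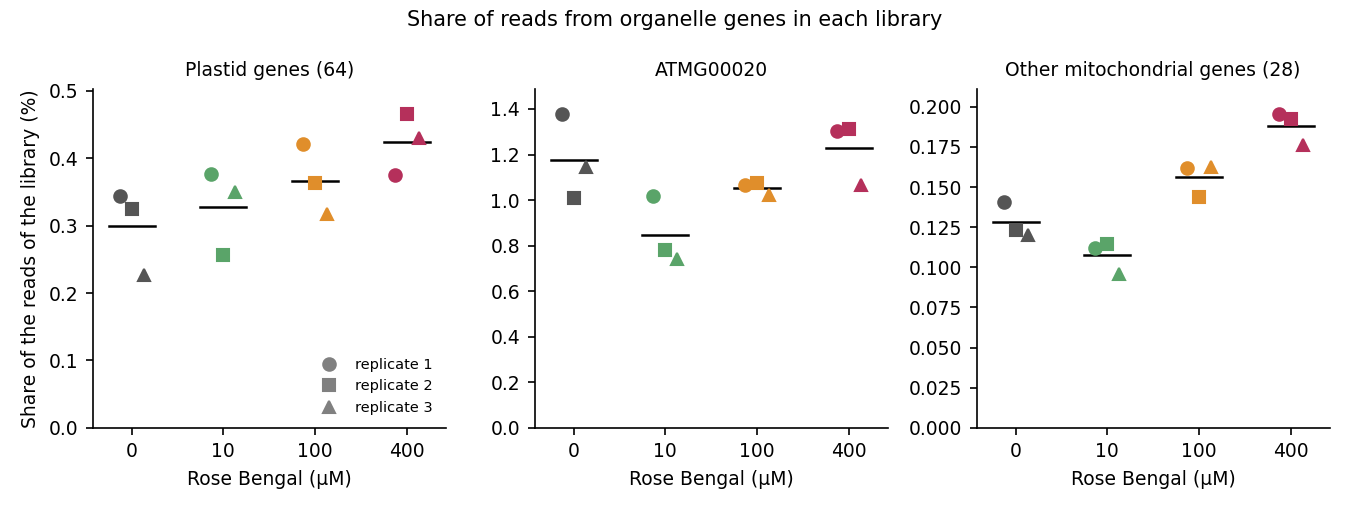
Points are libraries, marked by replicate number, and bars are the means of 3 libraries. The y axis is the percent of a library's reads and the x axis the dose of Rose Bengal. The 28 mitochondrial genes other than ATMG00020 separate the upper from the lower doses, at 0.144% or more against 0.141% or less. Most reads of these 28 genes are from ATMG01390. ATMG00020 at 400 µM overlaps the control.

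Some mitochondrial genes rose at RB 400 µM against RB 0 µM, led in abundance by ATMG01390, while the most abundant, ATMG00020, overlapped the control. By edgeR at an adjusted p under 0.05, 7 of 29 were called higher and 0 lower, where 9.11% of all genes were called higher and 6.43% lower. At an unadjusted p under 0.05 there were 13 higher and 0 lower (44.8%), against 1859 and 1654 of all 13307 genes (26.4%). DESeq2 called 5 mitochondrial genes higher and 0 lower. The fitted log2 fold change was above 0 for all 29 genes, or for 28 of 29 when library totals alone set the scale. It ran from 0.08 to 2.23 with a median of 0.82, against a median of -0.04 over all genes. In 14 of 29 genes every RB 400 µM library lay above every RB 0 µM library and in 0 every one lay below, where 17.4% and 17% of all genes did so. The highest mean of the 4 doses was at 400 µM in 27 of 29 mitochondrial genes and in 25% of all genes. The exceptions were ATMG00040 and ATMG00510, whose highest means were at 100 µM.

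ATMG01390, the second in abundance, showed the pattern in the most reads. It had 934, 827 and 849 CPM at RB 0 µM, 661, 769 and 575 at 10 µM, 1120, 1038 and 1267 at 100 µM, and 1425, 1347 and 1240 at 400 µM. The 10 µM libraries lay below the control and the 100 and 400 µM libraries above it, with no overlap. The log2 fold change at 400 µM was 0.62 ± 0.13 (SE, adjusted p = 0.00211). At 10 µM it was -0.38 ± 0.13 (adjusted p = 0.139) and at 100 µM 0.39 ± 0.13 (adjusted p = 0.0594), which were not called.

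ATMG00690 was called at both upper doses. Its levels were 114, 107 and 102 CPM at RB 0 µM, 107, 113 and 84.3 at 10 µM, 174, 151 and 193 at 100 µM, and 204, 188 and 182 at 400 µM. The upper doses lay wholly above the lower ones. The log2 fold change was 0.68 ± 0.14 at 100 µM (adjusted p = 0.00298) and 0.82 ± 0.14 at 400 µM (adjusted p = 0.000373).

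ATMG00660 and ATMG00670 were called at 400 µM, while ATMG00665, numbered between them, was not. ATMG00660 had 77.5, 70.3 and 73.8 CPM at RB 0 µM and 126, 120 and 104 at 400 µM, a log2 fold change of 0.66 ± 0.17 (adjusted p = 0.00901). ATMG00670 had 16.1, 13.6 and 11.7 CPM at RB 0 µM, 9.862, 8.395 and 11.69 at 10 µM, 17.5, 12.0 and 16.2 at 100 µM, and 23.5, 39.3 and 26.2 at 400 µM. Its log2 fold change at 400 µM was 1.09 ± 0.25 (adjusted p = 0.00378). In both genes the 400 µM libraries lay above all others. These calls and those of ATMG00690 and ATMG01390 were kept whichever of the 12 libraries was left out.

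The other 3 mitochondrial calls at 400 µM were lost when certain single libraries were left out. ATMG00516 held 685 reads, ATMG00090 446 and ATMG01020 47, beside 478 for ATMG00670. ATMG00516 had 20.6, 14.9 and 12.2 CPM at RB 0 µM, 24.3, 29.5 and 33.4 at 100 µM and 40.8, 25.1 and 27.5 at 400 µM, with no overlap with the control at either dose. Its log2 fold change was 0.86 ± 0.27 at 100 µM (adjusted p = 0.0435) and 0.97 ± 0.27 at 400 µM (adjusted p = 0.0184). ATMG00090 had 15.34, 11.08 and 9.552 CPM at RB 0 µM and 22.0, 21.0 and 20.3 at 400 µM (log2 fold change 0.81 ± 0.27, adjusted p = 0.0466). ATMG01020 had 1.21, 0.316 and 0.434 CPM and 2.09, 2.62 and 4.66 CPM (2.23 ± 0.73, adjusted p = 0.0467), from 47 reads in all. The call of ATMG00516 at 400 µM was lost without control replicate 2 (log2 fold change 0.92), control replicate 3 (0.82) or the first library at 400 µM (0.74). At 100 µM it was lost without replicate 2 or 3 of either RB 0 or RB 100 µM, or replicate 3 of 400 µM, with values of 0.69 to 0.83. ATMG00090 lost its call in 7 of 12 omissions, those of replicates 2 and 3 at 0 and 10 µM and of each library at 400 µM, with values of 0.68 to 0.83. Neither ATMG00090 nor ATMG01020 was called by DESeq2 (adjusted p = 0.0875 and 0.104) or on library totals alone (adjusted p = 0.101 and 0.056). ATMG01020 kept its call only when replicate 1 of 0 or 10 µM or replicate 2 of 100 µM was omitted, and ran from 1.80 to 2.94. Without the second or the third control library, 4 mitochondrial genes were called higher at 400 µM instead of 7.

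**Figure D3:**
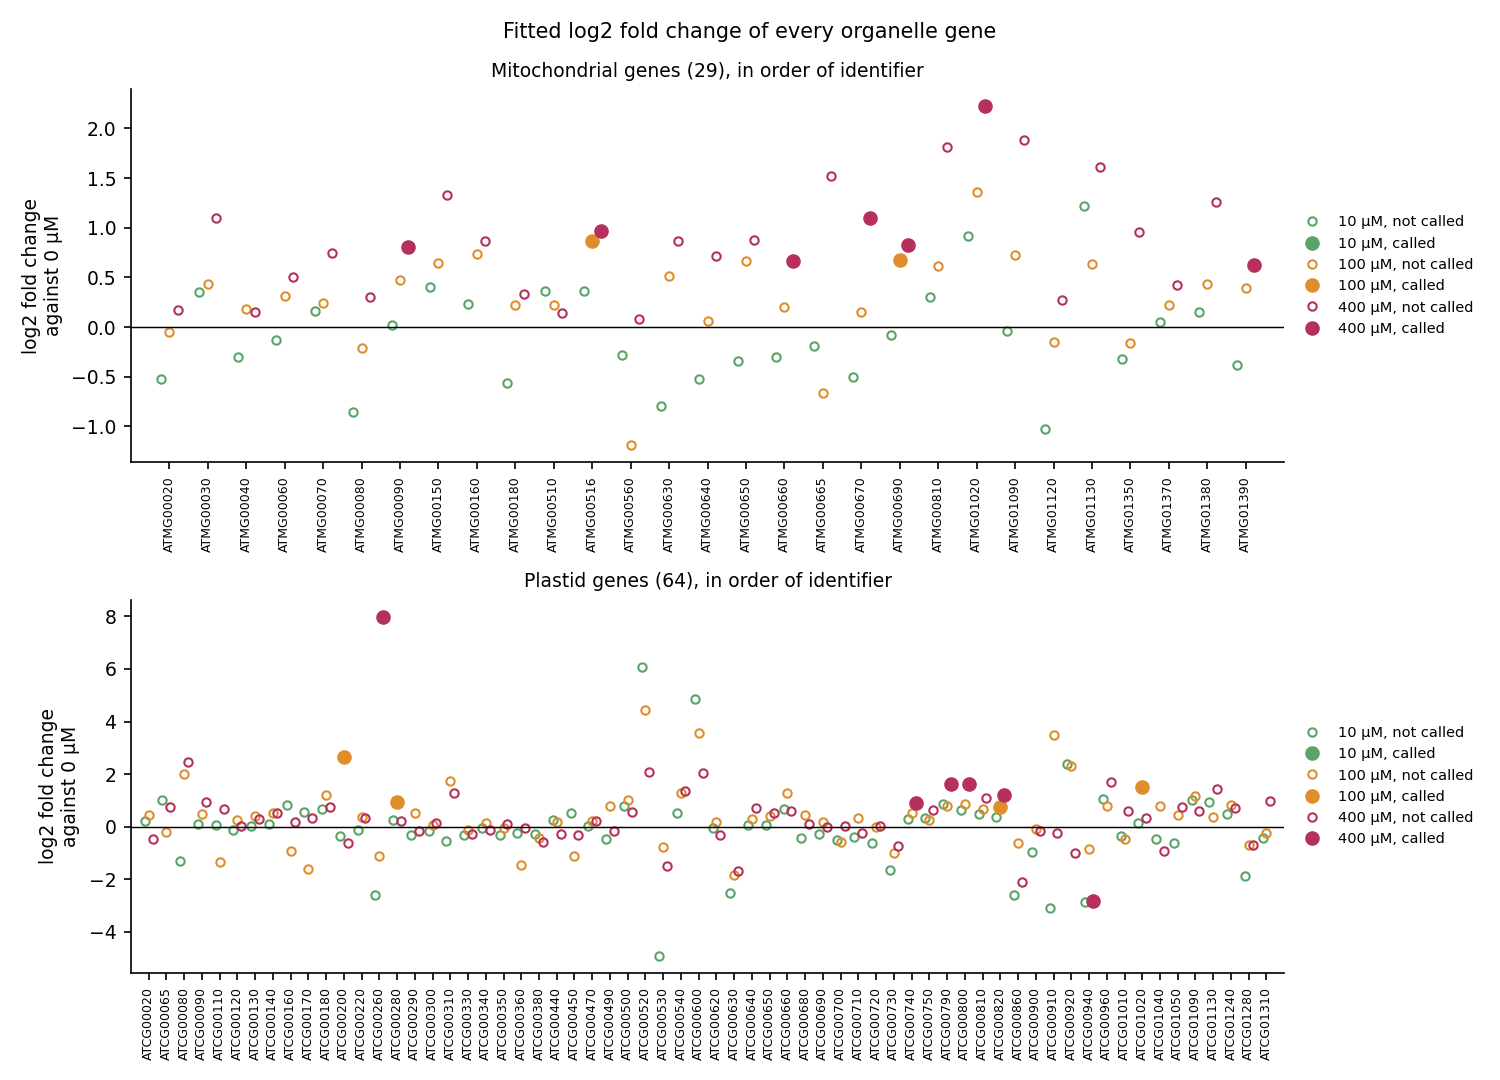
Each gene has 3 points, its fitted log2 fold change at 10 (green), 100 (orange) and 400 µM (red) against RB 0 µM, and filled points passed an adjusted p of 0.05. All 29 mitochondrial points at 400 µM lie above 0 (28 of 29 on library totals alone), while plastid points lie on both sides of it, with 5 of the 10 filled ones from ATCG00740 to ATCG00820 and the others spread from ATCG00200 to ATCG01020.

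None of the 3 mitochondrial genes that the annotation names was called. ATMG01090, named by likeness to ATP synthase 9, had 1.62, 0.95 and 0.868 CPM at RB 0 µM and 2.61, 5.24 and 5.08 at 400 µM, without overlap. Its log2 fold change was 1.88 ± 0.64 (adjusted p = 0.0556), which was not called. ATMG00180, which serves the attachment of haem to cytochrome c, had 17.8, 16.5 and 19.1 CPM at RB 0 µM, 14.4, 10.5 and 11.1 at 10 µM and 20.9, 24.1 and 22.0 at 400 µM. Its libraries lay below the control at 10 µM and above it at 400 µM, but neither difference was called (adjusted p = 0.233 and 0.369). ATMG00560 had 34 reads in all and a log2 fold change of 0.08 ± 0.91 at 400 µM. The AT2G07 genes with near-identical sequence make these 3 counts uncertain.

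At RB 10 µM no mitochondrial gene was called in either direction, where 2.66% of all genes were called higher and 1.07% lower, 3.73% in all. At an unadjusted p under 0.05 there were 3 of 29, all lower (10.3%), against 14.5% of all genes (1174 higher, 754 lower). DESeq2, which gave 7 of the 29 no adjusted p, called 1 lower. In 8 of 29 genes every 10 µM library lay below every RB 0 µM library, where 9.7% of all genes did so, and in 0 every one lay above (10.4%). ATMG00020 was among the 8, at 13309, 9583 and 11376 CPM at RB 0 µM and 9576, 7395 and 6840 CPM at 10 µM. The highest 10 µM value and the lowest control value almost met in that gene. Its log2 fold change was -0.525 ± 0.15 (adjusted p = 0.0644). Leaving out any of control replicate 2, replicates 1 and 2 of 10 µM, replicate 1 of 100 µM and replicate 3 of 400 µM gave 1 lower call. The median log2 fold change over the 29 was -0.13, and it was 0.09 without RB 0 µM replicate 1. That library had the highest value of its dose in 11 of the 12 mitochondrial genes above 10 CPM.

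At RB 100 µM the mitochondrial genes stood between. ATMG00516 and ATMG00690 were called higher, 2 of 29, and 0 lower, where 7.32% of all genes were called higher and 4.22% lower. The share called was near that of all genes, and the median log2 fold change was 0.31 against -0.04. At an unadjusted p under 0.05 there were 4 higher and 0 lower (13.8%), against 1666 and 1425 of all 13307 genes (23.2%). DESeq2 called 3 mitochondrial genes higher and 0 lower. Leaving out replicate 2 or 3 of RB 0 or RB 100 µM, or replicate 3 of 400 µM, left 1 call. ATMG00020 was close to the control, at a log2 fold change of -0.045 ± 0.15 at 100 µM (adjusted p = 0.896) and 0.17 ± 0.15 at 400 µM (adjusted p = 0.524). ATMG01380 varied within each dose, with 47.2, 13.9 and 18.7 CPM at RB 0 µM and 73.2, 88.0 and 30.1 CPM at 400 µM, which overlapped (log2 fold change 1.26 ± 0.44, adjusted p = 0.0619). In the F test over the doses, 8 of 29 mitochondrial genes and 14.6% of all genes passed. Without control replicate 2 or 3, or without the third library at 10 or 400 µM, there were 5.

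The plastid genes moved less evenly. Against RB 0 µM, 5 of 64 were called higher at 400 µM and 1 lower, below the 9.11% and 6.43% of all genes. Of these calls, that of ATCG00260 rested on 1 library and the lower one, ATCG00940, on few reads. At an unadjusted p under 0.05 there were 11 higher and 2 lower (20.3%), against 1859 and 1654 of all 13307 genes (26.4%). DESeq2 called 5 higher and 0 lower. The median of the fitted log2 fold changes was 0.25 and 42 of 64 genes lay above 0 (36 of 64 on library totals alone). The median was 0.19 when the 2 genes that lacked reads at 1 of these doses were put at their bound, with 3 counts as the floor of that group. Every RB 400 µM library lay above the control in 10 genes and below it in 1. Both shares were under the 17.4% and 17% of all genes. Most plastid calls lay close together by identifier.

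Of the 5 plastid calls upward at 400 µM, 4 fell between ATCG00740 and ATCG00820, a stretch with 6 identifiers in the table. ATCG00740, the most abundant plastid gene, had 885, 941 and 609 CPM at RB 0 µM, 1202, 753 and 1042 at 10 µM, 1163, 1227 and 1087 at 100 µM, and 1458, 1690 and 1379 at 400 µM. Each library at 100 and 400 µM lay above the control, and those at 400 µM above all others. Its log2 fold change at 400 µM was 0.89 ± 0.17 (adjusted p = 0.000997), after 0.51 ± 0.17 at 100 µM (adjusted p = 0.0627).

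ATCG00790 and ATCG00800 rose most among these 4 genes. ATCG00790 had 48.0, 45.9 and 21.3 CPM at RB 0 µM and 89.9, 137 and 134 at 400 µM (log2 fold change 1.64 ± 0.31, adjusted p = 0.000728). ATCG00800 had 47.6, 82.9 and 44.3 CPM at RB 0 µM and 144, 233 and 173 at 400 µM (1.64 ± 0.28, adjusted p = 0.000266). At 10 µM both were spread widely around higher means, for ATCG00800 at 104.6, 51.4 and 118 CPM, and overlapped the control. ATCG00820 had 195, 204 and 125 CPM at RB 0 µM, 370, 241 and 277 at 100 µM and 401, 494 and 328 at 400 µM. It was called at 100 µM (0.76 ± 0.22, adjusted p = 0.0324) and at 400 µM (1.22 ± 0.23, adjusted p = 0.000677). The 4 calls at 400 µM were kept whichever library was left out. That of ATCG00820 at 100 µM was lost without control replicate 1 (0.85) or 3 (0.56), or without the first library at 100 µM (0.57) or at 400 µM (0.74).

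The remaining 2 genes of the stretch were counted from fewer reads and were not called. ATCG00750, ribosomal protein S11, a subunit of the small plastid ribosomal particle, had 4.44, 5.07 and 2.17 CPM at RB 0 µM and 7.32, 8.90 and 2.54 at 400 µM (log2 fold change 0.62 ± 0.48, adjusted p = 0.463). ATCG00810 had 7.67, 6.01 and 2.17 CPM and 10.98, 16.8 and 7.196 CPM (1.10 ± 0.42, adjusted p = 0.0948). All 6 fitted values were above 0 at each of the 3 doses. Plastid genes are often read into joint transcripts with their neighbours, so counts of genes that are neighbours in the genome are not independent of one another.

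**Figure D4:**
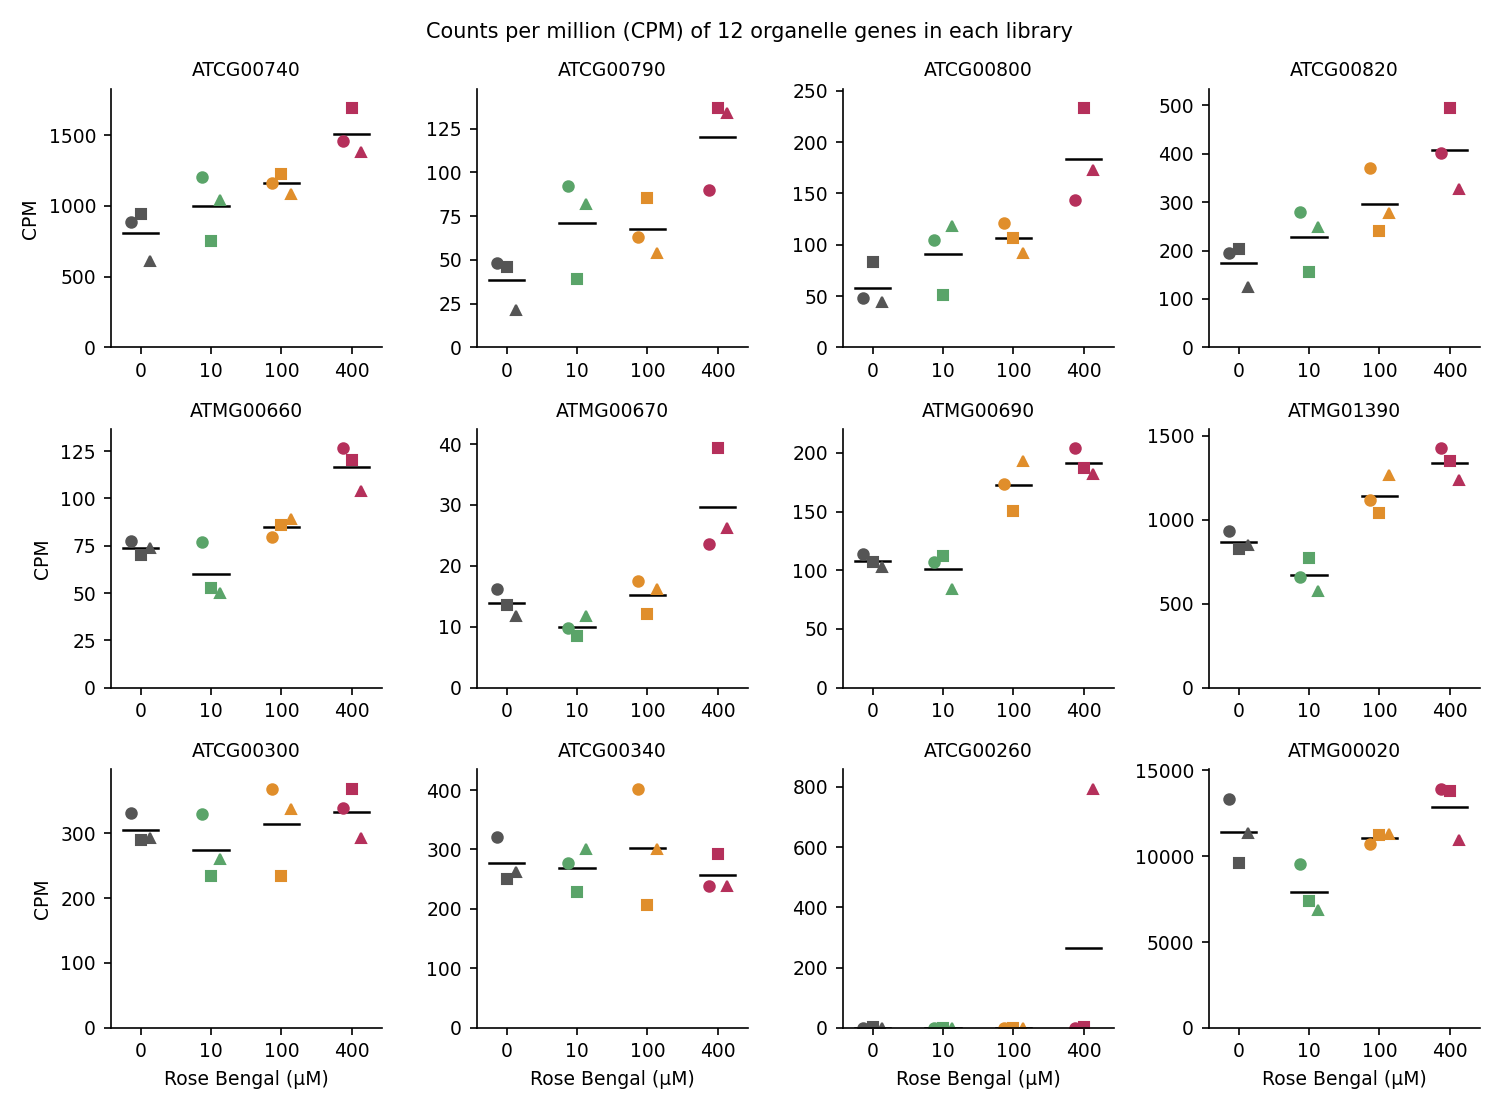
Panels are 12 organelle genes, with the level in CPM on the y axis and the dose on the x axis. Points are libraries (circle, square and triangle for replicates 1, 2 and 3) and bars are means. The 8 genes in the upper rows separate 400 µM from the control, ATCG00300 and ATCG00340 do not, and in ATCG00260 a lone library at 794 CPM carries the mean.

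Of the other abundant plastid genes, none but ATCG00260, whose reads came from 1 library, was called at 400 µM. ATCG00300 had 331, 289 and 292 CPM at RB 0 µM and 338, 368 and 293 at 400 µM (log2 fold change 0.13, adjusted p = 0.68). ATCG00340 had 321, 251 and 263 CPM and 238, 292 and 238 CPM (-0.12, adjusted p = 0.76). ATCG00650 had 279, 338 and 142 CPM and 387, 413 and 292 CPM (0.52, adjusted p = 0.18). In each of these 3 the doses overlapped. In 2 others, picked after their values were seen, they did not. ATCG00640 had 97.3, 104 and 60.3 CPM at RB 0 µM and 122, 196 and 110 at 400 µM (0.70 ± 0.24, adjusted p = 0.0573). ATCG00470 had 130, 110 and 125 CPM and 136, 155 and 131 CPM (0.20 ± 0.16, adjusted p = 0.479). Of the named plastid ribosomal proteins, ATCG01310 (L2) had 3.23, 3.80 and 3.47 CPM at RB 0 µM and 7.84, 8.38 and 5.08 at 400 µM, without overlap (0.99 ± 0.45, adjusted p = 0.163). ATCG00660 (L20) had 62 reads in all and a log2 fold change of 0.59 ± 0.76, and ATCG00530 had 22 reads, 13 of them in RB 0 µM replicate 2.

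At RB 100 µM, 4 plastid genes were called higher and 0 lower, where 7.32% and 4.22% of all genes were. At an unadjusted p under 0.05 there were 11 higher and 0 lower (17.2%), against 1666 and 1425 of all 13307 genes (23.2%). DESeq2 called 6 plastid genes higher and 0 lower. In 10 genes every library lay above the control and in 0 below, where 14% and 13.4% of all genes did so. ATCG00280 had 148, 156 and 129 CPM at RB 0 µM, 133, 147 and 237 at 10 µM, 309, 343 and 188 at 100 µM and 158, 208 and 134 at 400 µM. It was raised in all 3 libraries at 100 µM (0.95 ± 0.23, adjusted p = 0.00781) and overlapped the control at 400 µM (0.20 ± 0.23, adjusted p = 0.638). Its call was lost without control replicate 3 (0.86) or the second library at 100 µM (0.77). ATCG01020 had 22.2, 5.01 and 8.11 CPM at 100 µM against 4.44, 4.43 and 3.91, and its fold rested on RB 100 µM replicate 1. The log2 fold change was 1.49 ± 0.45 (adjusted p = 0.0376) with that library and 0.62 (adjusted p = 0.399) without it. Omitting any control library, or replicate 1 or 3 of 400 µM, also ended the call, at 1.43 to 1.52. The other calls were ATCG00820 and ATCG00200. Without RB 0 µM replicate 3, the control library with the lowest level in 16 of the 23 plastid genes above 10 CPM, 0 plastid genes were called at 100 µM. Without control replicate 1 there was 1, and without replicates 1 and 3 of 400 µM, each in turn, 1 and 2.

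At RB 10 µM 0 of 64 plastid genes were called in either direction, where 2.66% of all genes were called higher and 1.07% lower. At an unadjusted p under 0.05 there were 11 (5 higher, 6 lower), or 17.2%, against 14.5% of all genes. DESeq2 called 0 plastid genes and gave 20 no adjusted p. Every library lay above the control in 1 gene (1.56%) and below it in 5 (7.81%), where 10.4% and 9.7% of all genes did so. Without RB 10 µM replicate 2, the lowest library of its dose in 18 of the 23 genes above 10 CPM, 2 were called higher. The median log2 fold change was -0.01, with 32 of 64 above 0.

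A trait of the plastid genes was that some had most of their reads in 1 library. Of 48 plastid genes with at least 50 reads, 4 had over 50% of them in 1 library (8.33%), and of 22 mitochondrial genes 0 did. Over the whole table this held for 67 of 11217 genes (0.597%). ATCG00260 was the most extreme, with 1877 of 1894 reads (99.1%) in RB 400 µM replicate 3 and 0 to 6 reads in each other library. It had the largest fitted log2 fold change of the 93 genes at 400 µM (7.99 ± 1.71, adjusted p = 0.00245), yet the doses overlapped, and without that library the log2 fold change was 0.42 (adjusted p = 0.877). With all libraries 10 of 64 plastid genes (15.6%) passed the F test over doses, near the 14.6% of all genes. Without RB 400 µM replicate 3, 6 plastid genes passed.

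ATCG00200 had 62 of 104 reads in RB 100 µM replicate 2 and 1 to 7 reads in the others. It was called at 100 µM (2.66 ± 0.84, adjusted p = 0.046), and without that library the log2 fold change was 0.18 (adjusted p = 0.936). The call held only when replicate 1 of 10 µM, or replicate 1 or 3 of 100 µM, was omitted. ATCG00920 had 178 of 323 reads in RB 10 µM replicate 2 and 87 in RB 100 µM replicate 3, and ATCG00630 had 33 of 53 in RB 0 µM replicate 2, and neither was called. Just outside the limit, ATCG00860 had 254 CPM in RB 0 µM replicate 1 and 7.04 to 111 CPM in the other libraries. Different libraries were thus high in different genes. The lone lower call, ATCG00940 at 400 µM (-2.84 ± 0.92, adjusted p = 0.0413), rested on few reads too. It had 4, 23 and 5 reads at RB 0 µM and 1 in each library at 400 µM, without overlap. From 32 reads against 3, pooled over the libraries of each dose, it was 8.98-fold lower at 400 µM. The 95% counting interval was 2.81 to 45.8, which leaves out the spread between libraries. The log2 fold change without RB 0 µM replicate 2 was -1.85 (adjusted p = 0.328). It was lost as well without any 1 of the RB 400 µM libraries, at -2.75, -2.88 and -2.89.

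**Figure D5:**
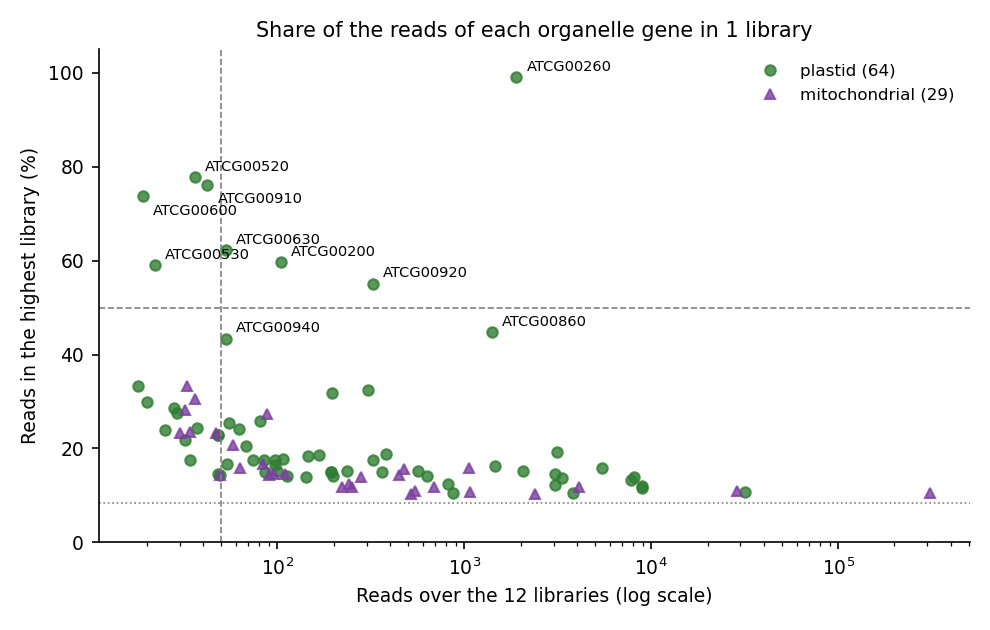
Each point is a plastid (circle) or mitochondrial (triangle) gene, with its reads over the 12 libraries on a log x axis and the percent of them in its highest library on the y axis. The dotted line is an equal share of 12 libraries and the dashed lines are 50 reads and 50%. The 4 named plastid genes in the upper right corner are ATCG00260, ATCG00200, ATCG00920 and ATCG00630, and no mitochondrial gene is there.

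The spread within a dose was wide for abundant plastid genes in general. The chi-square of the reads within doses, divided by its 8 degrees of freedom, would be near 1 for counting error alone. Among genes with at least 1000 reads its median was 26.7 for 15 plastid genes, 12.1 for 6 mitochondrial genes and 4.32 for 3765 other genes. With 100 to 1000 reads the medians were 3.18, 1.52 and 1.82. Above 10 CPM, 1 library was often the highest or lowest of its dose for many plastid genes. RB 400 µM replicate 2 was the highest of its dose in 19 of 23, and RB 400 µM replicate 3 the lowest in 18. At 100 µM there was no such order, with each library the lowest in 3, 9 or 11 genes and the highest in 12, 7 or 4. These are differences between libraries of 1 dose, on which the plastid tests rest.

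Between neighbouring doses few organelle genes differed. From 10 to 100 µM, 2 of 29 mitochondrial genes and 2 of 64 plastid genes were called, all higher, where 2.98% of all genes were called higher, 1.5% lower and 4.47% in all. At an unadjusted p under 0.05 there were 9 mitochondrial genes (31.0%), all higher, and 12 plastid genes (18.8%), 11 of them higher. Of all genes 20.2% had such a p (1296 higher, 1393 lower). DESeq2 called 2 of each genome. The mitochondrial genes were ATMG00690 (0.76 ± 0.14, adjusted p = 0.00495) and ATMG01390 (0.77 ± 0.13, adjusted p = 0.00192), and in 9 of 29 every 100 µM library lay above every 10 µM library and in 0 below, against 10.6% and 9.57% of all genes. Without replicate 1 of 10 µM or of 100 µM, 4 mitochondrial genes were called.

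The plastid genes were ATCG00490 and ATCG00910, which were singled out after their values had been seen. ATCG00490 had 87.0, 65.6 and 72.0 CPM at 10 µM and 128, 302 and 99.3 at 100 µM (1.23 ± 0.30, adjusted p = 0.0257), with 107, 99.1 and 102 CPM at RB 0 µM. Its call was lost without replicate 2 (1.11) or 3 (1.22) of 10 µM or replicate 2 of 100 µM (0.59). ATCG00910 had 0 reads at 10 µM and 37 at 100 µM, 32 of them in RB 100 µM replicate 1. Set against a floor of 3 counts over the 10 µM libraries it was at least 13.3-fold higher, and the call held only without replicate 2 of RB 0 or RB 100 µM. From 100 to 400 µM 0 of 93 genes were called, where 0.015% of all genes were called higher, 0.0301% lower and 0.0451% in all. There, 13 plastid genes (5 higher, 8 lower) and 4 mitochondrial genes, all higher, had an unadjusted p under 0.05. These were 20.3% of the 64 and 13.8% of the 29, against 7.9% of all genes (464 higher, 586 lower). DESeq2 called 0 and gave 46 plastid and 19 mitochondrial genes no adjusted p. Without replicate 1 of 100 µM or replicate 2 of 400 µM edgeR called 1 plastid gene. The 400 µM libraries lay above those at 100 µM in 4 plastid and 4 mitochondrial genes and below them in 3 and 0, where 5.96% and 6.39% of all genes did so. The comparisons with RB 0 µM share the same 3 control libraries, and those between neighbouring doses share libraries with them.

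Among nuclear genes that serve organelle transcription and RNA decay, 2 sigma factor genes were called. Of 20 listed genes of plastid transcription 17 were in the table, 0 were called at 10 µM, where 2 were lower at an unadjusted p under 0.05, and 0 were called higher at any dose by edgeR, by DESeq2 or at an unadjusted p. At an unadjusted p under 0.05, 3 and 5 were lower at 100 and 400 µM, where 1425 and 1654 of all 13307 genes were. At each of these doses 1 was called lower, which is close to the 4.22% and 6.43% of all genes called lower. These were SIG2 at 100 µM, with 68.8 ± 6.98 CPM at RB 0 µM and 42.6 ± 2.83 CPM (SD, n = 3), and SIG4 at 400 µM, with 11.7 ± 3.395 and 4.84 ± 2.92 CPM. Both code for sigma factors that guide the plastid-encoded polymerase. Their log2 fold changes were -0.69 ± 0.18 (adjusted p = 0.0122) and -1.24 ± 0.39 (adjusted p = 0.0373). DESeq2 called 1 gene lower at 100 µM and 0 at 400 µM. The call of SIG2 was lost without control replicate 3 (-0.63), and that of SIG4 without control replicate 1 (-1.17) or 2 (-1.07) or replicate 1 (-0.84) or 2 (-1.35) of 400 µM. The median over the 17 was -0.33 at 100 µM and -0.44 at 400 µM, against -0.04 over all genes. Of 7 listed genes of organelle RNA decay and 3′ end processing 5 were in the table, and 0 were called at any dose by edgeR or DESeq2, with 2 lower at an unadjusted p under 0.05 at 100 µM and 0 at the other doses. Of 2 for mitochondrial transcription 1 was in the table and had no p under 0.05 at any dose.

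Both shoot and root markers were present, as the label of whole seedlings requires, and most of the root markers fell. Of 7 root genes 3 were called lower at 10 µM, 3 at 100 µM and 5 at 400 µM, where 1.07%, 4.22% and 6.43% of all genes were. The marker lists and the nuclear lists above were chosen with earlier results of these data known. Their shares of calls are therefore not independent evidence. The summed level of the 7 root genes was 157 to 226 CPM at RB 0 µM and 65.6 to 79.4 CPM at 400 µM. The genes called lower at 400 µM were the root hair expansins EXPA7 and EXPA18, each with 1 read left at that dose. From 135 reads pooled over the RB 0 µM libraries EXPA7 was 114-fold lower (95% interval for counting error alone, 20.1 to 4520). From 177 such reads EXPA18 was 149-fold lower (26.4 to 5920). The others, by log2 fold change, were the aquaporin TIP2;3 (-2.74), the phosphate exporter PHO1 (-1.36) and the Casparian strip gene CASP1 (-0.64). The remaining root genes were not called at any dose. PYK10 had log2 fold changes of 1.03, -1.05 and -0.95 at 10, 100 and 400 µM and CASP2 of -0.26, -0.26 and -0.63. The 6 green shoot genes, which code for the small subunit of Rubisco and for light-harvesting proteins, summed to 33559 to 34890 CPM at RB 0 µM. At 10 and 100 µM they summed to 25762 to 31091 and 26825 to 29558 CPM, wholly below the control, and at 400 µM to 26334 to 35116 CPM, which overlapped it. Of them 1 was called, RBCS1A at 100 µM (-0.45, adjusted p = 0.0337). The part of these shifts in the levels of the organelle genes was not tested.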

How the data were processed

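Raw read counts per gene of 12 libraries were analysed. The libraries were made by MARS-seq and sequenced on a NextSeq 500. According to the methods, the authors trimmed reads with cutadapt (1.8.3 in the submitters' processing notes, which also list bcl2fastq 2.17.1.14), mapped them to Araport 11 with STAR and counted them with HTSeq-count. The deposited counts cover genes with at least 6 reads in some library. Molecular identifiers were not used, so PCR duplicates remain. The authors' size-factor normalized signal and regularized log2 values are in the deposited table too and were not used.

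Groups are the RB doses of the labels (the accession list of the study gives a different treatment). All 13307 genes entered 1 fit of edgeR 4.0.16 (R 4.3.3, limma 3.58.1; glmQLFit, glmQLFTest) with TMM factors. Tests were two-sided, adjusted by Benjamini-Hochberg over all genes, and called under 0.05. SE is the log2 fold change over the square root of F. CPM uses the same factors. Library totals ran from 1499791 to 3608636 reads. Steps across genes were tested on simulated data. Windows of 50 bases were matched exactly within TAIR10.1 on both strands, and nuclear genes were aligned with BLAST 2.17.0. Members called against RB 0 µM, the 5 most abundant of each genome and those with most reads in 1 library are named. The members and lists were chosen with earlier results of these data known. Alternatives were DESeq2 1.42.0, other scalings and filters, a replicate block, fits of the compared groups alone and leaving out libraries.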

Additional observations from a re-analysis of the deposited data

How the results depend on the processing

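Replicate numbers did not pair the libraries. The correlation of same-numbered libraries' deviations from their dose means had a median of 0.01 (-0.36 to 0.42), was over 0.1 in 4 of 18 pairs, and 4 of 12 libraries correlated best with their own number. Of 36 pairs with different numbers 11 were over 0.1, up to 0.404, so some libraries of different doses did share deviations. Replicate 1 of 10 and 100 µM and replicate 2 of 400 µM correlated with each other at 0.264 to 0.419. With the replicate block, 2 plastid genes were called higher at 100 µM (4 without it), 0 lower at 400 µM (1) and 1 between 100 and 400 µM (0). No other count of calls moved by over 1.5 times with the block, and of the single-gene calls it lost ATCG00200, ATCG00940, ATCG01020 and ATMG01020.

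DESeq2 called 1 mitochondrial gene lower at 10 µM (edgeR 0) and 0 plastid genes lower at 400 µM (1). On library totals alone, which moved the median of all genes to -0.15 at 100 and 400 µM and the higher share of calls from 63.5% to 49.4% and from 58.6% to 46.5%, 1 plastid and 1 mitochondrial gene were called higher at 100 µM (4 and 2), 0 plastid genes between 10 and 100 µM (2) and 5 mitochondrial genes in the F test (8). The mitochondrial median at 100 µM became 0.20 (0.31). With at least 10 reads in at least 3 libraries there were 0 plastid calls lower at 400 µM (1), 1 between 10 and 100 µM (2) and 6 in the F test (10), and mitochondrial medians of -0.29 at 10 µM and 0.21 at 100 µM. With only the compared groups fitted, 0 plastid and 1 mitochondrial gene were called between 10 and 100 µM (2 and 2). Without ATMG00020 the mean mitochondrial shares were 0.128%, 0.107%, 0.156% and 0.188% (1.30%, 0.954%, 1.21% and 1.42%).

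Replicate 1 of 10 and 100 µM and replicate 2 of 400 µM were left out together, a choice made after seeing the data. This gave 1 plastid gene higher and 1 mitochondrial gene lower at 10 µM (0 and 0), and 8 plastid genes higher at 100 µM (4). It also gave 7 mitochondrial genes between 10 and 100 µM (2) and 3 plastid genes between 100 and 400 µM (0). Why was not tested.

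Leaving out each library in turn gave 0 to 2 plastid genes higher and 0 to 1 mitochondrial gene lower at 10 µM, 0 to 6 plastid and 1 to 3 mitochondrial genes higher at 100 µM, 0 to 1 plastid gene lower and 4 to 9 mitochondrial genes higher at 400 µM, 1 to 3 plastid and 2 to 4 mitochondrial genes between 10 and 100 µM, 0 to 1 plastid gene between 100 and 400 µM, and 6 to 11 plastid and 5 to 9 mitochondrial genes in the F test. Mitochondrial medians ran from -0.23 to 0.09 at 10 µM, 0.18 to 0.41 at 100 µM and 0.72 to 0.86 at 400 µM. No fitted value of a named called gene changed sign under any of these alternatives. DESeq2 gave no adjusted p for ATCG00260. Below about 10 CPM a few reads decide a value, which holds for 41 plastid and 17 mitochondrial genes.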
